A study of Mus musculus with 8 samples.

Results

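The cytosolic ribosomal protein genes were examined in CD45+ cells from the tumour of glioma-bearing mice and from the brain of normal mice. The members were the genes whose symbol is Rpl or Rps followed by a digit, without pseudogene symbols and Rps6k kinases, plus Rplp0, Rplp1, Rplp2 and Rpsa. This gave 86 of the 31053 genes in the files, all annotated as protein coding: 31 small-subunit genes, 46 large-subunit genes and 9 paralogue or like genes (Rps27l, Rps27rt, Rpl3l, Rpl7l1, Rpl10l, Rpl22l1, Rpl36al, Rpl39l and Rps19bp1). Both groups hold 4 samples of CD45+ cells, where CD45 is the pan-leukocyte surface protein, taken by magnetic sorting. Per the labels, 1 group came from the tumour and the other from the brain of mice without a tumour. Neither the strain, age or sex of the mice nor the glioma model is given in the sources used here. Each group was analysed as 1 pooled 10x Chromium 3' library, because no barcode could be tied to an animal. Glioma and library therefore cannot be told apart in any value below, no test between groups was possible, and every interval covers counting error only.

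Each ribosome carries 1 copy of most of these proteins, so their messenger RNAs are made in near-balanced amounts. Most of the mRNAs begin with a run of pyrimidines, the 5' terminal oligopyrimidine (TOP) tract, through which mTOR and LARP1 couple their translation and stability to nutrients and growth signals. In blood cells the mRNA class is a large part of the transcriptome of resting lymphocytes and a small part of that of mature neutrophils. A few members have paralogues that can take the place of the usual protein in some tissues.

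Start sites of members that the results turn on, with long and with short tracts, are shown because the TOP tract is what marks the class. Promoter entries from RefSeq on GRCm38.p6 matched 66 of the 86 members. A run of at least 6 C or T bases that reached within 5 bases of the annotated start was present in 31 of these 66 (47.0%) and in 5433 of all 27018 promoters (20.1%). The letters CTTTCC on the sense strand within 10 bases of the start were found in 9 of 66 members (13.6%) and in 0.837% of all promoters. CCGGAAG, a core of ETS-family sites, occurred on either strand of the 300-base window in 25 of 66 members (37.9%) and in 9.12% of all promoters. AAGATGGC, a core of YY1 sites, occurred in 5 of 66 members (7.58%) and in 2.88% of all. TATAAA occurred in 6 of 66 (9.09%), against 14.2% of all. These are matches of letters in a window, and annotated starts can lie some bases from the used ones. The windows from 20 bases before to 10 bases from the start are given 5′ to 3′, with the longest C or T run at the start in capitals.
Rps27 (chr3:90213639-90213668, minus strand): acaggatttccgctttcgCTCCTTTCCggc
Rps27l (chr9:66946066-66946095, plus strand): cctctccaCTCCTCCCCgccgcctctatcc
Rps18 (chr17:33955656-33955685, minus strand): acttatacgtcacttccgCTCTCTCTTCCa
Rps9 (chr7:3704021-3704050, plus strand): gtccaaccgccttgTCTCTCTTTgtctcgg
Rps15a (chr7:118116138-118116167, minus strand): gcccactctctttctgccaTCTTCCCTCgc
Rplp2 (chr7:141447631-141447660, plus strand): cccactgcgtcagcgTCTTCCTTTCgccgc
Rpl12 (chr2:32961692-32961721, plus strand): gcgtgggcggagcaggatccgTCTTTTCgg
Rpl22l1 (chr3:28805488-28805517, plus strand): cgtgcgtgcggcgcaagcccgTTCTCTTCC
Rpl41 (chr10:128549159-128549188, minus strand): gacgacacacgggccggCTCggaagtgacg
Rpsa (chr9:120127746-120127775, plus strand): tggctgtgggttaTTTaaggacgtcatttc
Rplp0 (chr5:115559447-115559476, plus strand): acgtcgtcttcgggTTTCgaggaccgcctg
Rpl3l (chr17:24727806-24727835, plus strand): cagctgagtgttctagCTCTgtcatttgac
Rps27 carries its 9-base run across the start, and the 9-base run of Rps27l lies wholly upstream of it. Rplp0 and Rpl3l have runs of only 4 bases, and Rpl41 and Rpsa of 3. The median run at the start was 5 bases in the 66 members and 3 in all promoters.

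The zinc-finger pair Rps27 and Rps27l, the second a p53 target, take different shares between classes below, so the 120 bases before each start are also shown. Capitals mark AAGATGGC. CCGGAAG and TATAAA had no match on either strand in these stretches.
Rps27 upstream (chr3:90213649-90213768, minus strand): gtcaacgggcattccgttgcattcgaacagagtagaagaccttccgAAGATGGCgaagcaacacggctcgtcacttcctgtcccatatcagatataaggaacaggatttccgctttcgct
Rps27l upstream (chr9:66945966-66946085, plus strand): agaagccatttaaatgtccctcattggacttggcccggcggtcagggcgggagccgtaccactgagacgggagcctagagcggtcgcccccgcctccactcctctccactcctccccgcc
The Rps27 stretch holds AAGATGGC and the Rps27l stretch does not.

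The counts are unique molecular identifiers (UMIs), 159689787 in the glioma library and 124023146 in the control library. Barcodes with at least 1000 UMIs and at most 10% mitochondrial UMIs were kept, 11049 from glioma and 13680 from control, and 41 barcode sequences were kept in both. Classes were gated by marker UMIs per 10000 UMIs and are named X-like for that reason. The 129 endothelial-like, 205 erythroid-like and 15 oligodendrocyte-like cells of the control library do not match the CD45 sort. Free RNA was read from barcodes with 10 to 100 UMIs. In free RNA, members made up 19.1% of UMIs in glioma and 21.9% in control, so the background lies near glioma macrophages and above control microglia. From marker genes foreign to each class, free RNA could be at most 9.68% of the UMIs of the glioma classes, except the 34 B cell-like cells with at most 20.6%, and at most 8.04% of those of control microglia-like cells.

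T cell-like cells were near the top of the share of UMIs from the members, and neutrophil-like cells near the bottom, in both libraries. In glioma the share was 28.8% in 108 NK cell-like cells and 28.7% in 1392 T cell-like cells. It was 25.9% in 480 dendritic cell-like cells, 25.3% in 34 B cell-like cells and 23.2% in 29 plasmacytoid dendritic cell-like cells. The macrophage family was lower, at 19.5% in 4880 macrophage-like cells, 18.4% in 1581 monocyte-like cells and 17.8% in 352 cells with border-associated macrophage markers. The 31 glioma microglia-like cells had 16.7%, and 376 neutrophil-like cells had 8.67%. In the control library, 95 T cell-like cells had 27.6%, 50 B cell-like cells 24.6%, 27 NK cell-like cells 21.8% and 36 monocyte-like cells 18.7%. The 11499 control microglia-like cells, most of that library, had 13.7%. Border-associated macrophage-like cells had 10.8%, neutrophil-like cells 9.28%, endothelial-like cells 9.16% and erythroid-like cells, whose UMIs are mostly globin, 1.12%. The exact 95% interval of each share was narrow, 28.71 to 28.76% in glioma T cell-like cells and 25.1 to 25.6% in the 34 glioma B cell-like cells, and says nothing of the spread between mice.

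**Figure D1:**
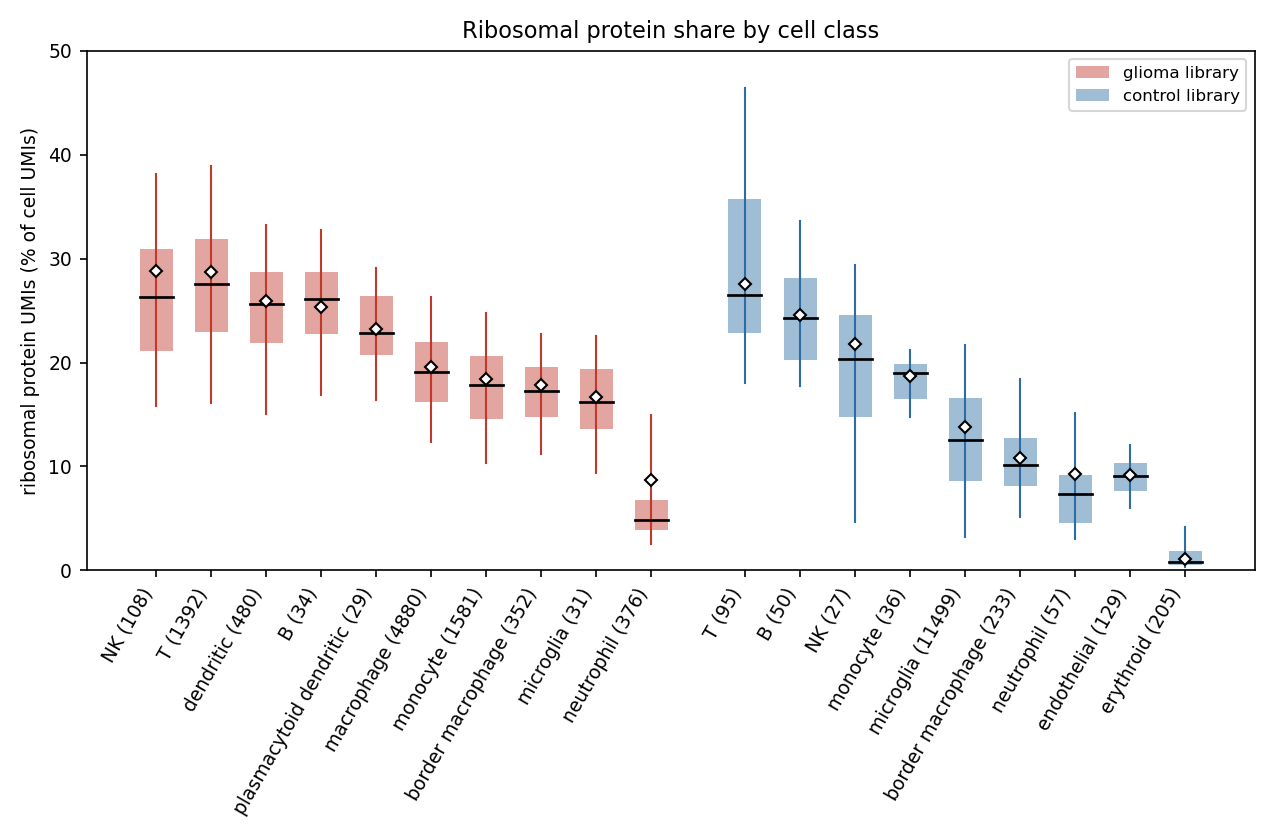
Share of each cell's UMIs that came from the 86 ribosomal protein genes (y axis, percent) for each class of the glioma library (left) and the control library (right), with the number of cells in brackets. Boxes span the middle 50% of cells, black lines are medians, whiskers run from the 5th to the 95th percentile of cells and diamonds give the share of the summed UMIs. T cell-like cells lie at 28.7% in glioma and 27.6% in control, and the 11499 control microglia-like cells at 13.7%.

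Cells within a class varied widely. In control microglia-like cells the middle 50% of cells spanned 8.61 to 16.6%, around a median of 12.6%. In glioma macrophage-like cells they spanned 16.2 to 21.9%, around 19.04%. Glioma neutrophil-like cells had a median of 4.87% and a 95th percentile of 14.9%, so the summed share of 8.67% stood above most of the cells. Part of this spread moved with depth. With the control microglia-like cells cut into 4 groups by UMI count, the share was 9.14, 11.8, 14.3 and 15.4% from the shallowest to the deepest group. In glioma macrophage-like cells it was 17.7, 18.9, 19.4 and 20.3%. Glioma neutrophil-like cells stayed at 5.04, 4.95 and 4.84% in the 3 shallower groups and had 12.02% in the deepest, whose median depth was 6754 UMIs, against 2760 UMIs in the group before it. The part of depth in the difference between classes was not tested, and values at like depth are given beside only some of the comparisons.

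**Figure D2:**
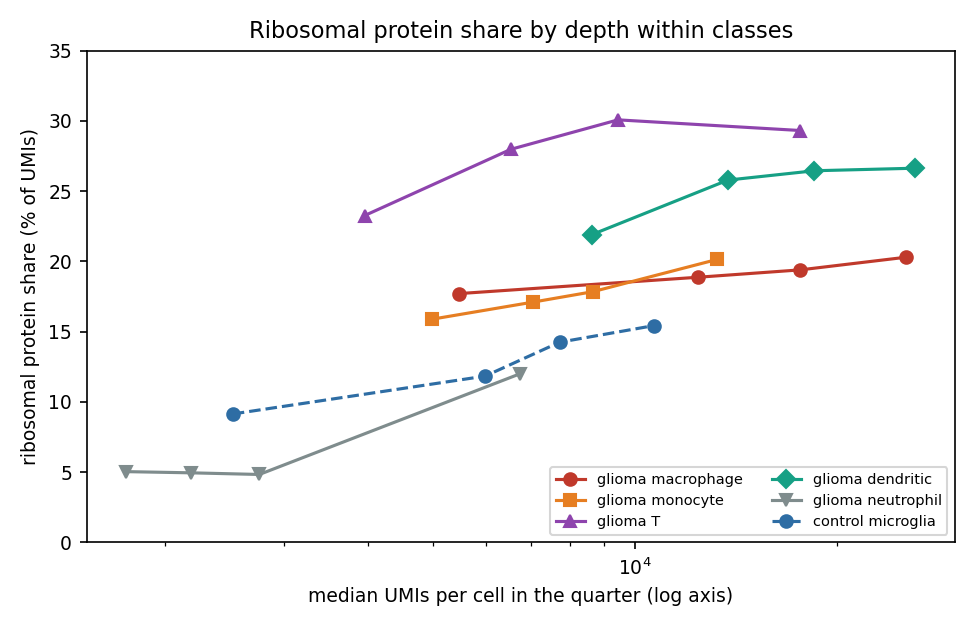
Ribosomal protein share (y axis, percent of UMIs) against the median UMIs per cell (x axis, log scale) in 4 groups of cells ordered by UMI count, for 5 glioma classes (solid lines) and control microglia-like cells (dashed line). The share was higher in deeper cells of most classes, and neutrophil-like cells stayed near 5% except in the deepest group.

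Glioma cells of the macrophage lineage (6813 macrophage-, monocyte- and border-associated macrophage-like cells) were set against control microglia-like cells, the main myeloid cells of each of the libraries. Members made up 19.3% of UMIs in the glioma lineage and 13.7% in control microglia-like cells, 1.40-fold more (0.49 on the log2 scale). The median member was 0.56 higher on the log2 scale, while the median of all 14625 genes with at least 20 UMIs was -0.39. With the 2 libraries scaled by the median of ratios, these medians were 0.85 and -0.10. Of the 85 members tested, 75 lay above 0. At the 2-fold limit 12 were higher, against 16.5% of all genes, and 1 was lower, against 33.2% of all genes. In cells with 5000 to 10000 UMIs in both libraries the log2 ratio of the share was 0.34.

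Among small-subunit genes, Rps18 of the subunit head had 3295 CPM (UMIs scaled to a total of 1000000) in the glioma lineage and 1277 CPM in control microglia-like cells, a log2 ratio of 1.37. Rps2 had 2968 and 1387 CPM (1.10), and Rps19, mutated in some human Diamond-Blackfan anaemia, 3081 and 1479 CPM (1.06). Rpsa, the laminin-receptor-related protein of the small subunit, had 2987 and 1456 CPM (1.04). Each of these was more than 2-fold higher in the glioma lineage.

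Among large-subunit genes, Rpl41, which encodes the smallest ribosomal protein, had 3816 CPM in the glioma lineage and 1585 CPM in control microglia-like cells (log2 ratio 1.27). Rpl31 had 776 and 342 CPM (1.18), and Rpl38, needed for axial patterning in the mouse embryo, 2119 and 974 CPM (1.12). A few genes had values on the other side of 0. Rpl21 had 1715 CPM in the glioma lineage and 2603 CPM in control microglia-like cells (-0.60), and Rps21 had 1908 and 2073 CPM (-0.12). Rpl30, at 2399 and 2516 CPM (-0.07), Rps12 and Rps4x lay close to 0. Under median-of-ratios scaling 82 of the 85 members lay above 0, Rps21, Rpl30, Rps12 and Rps4x among them, and Rpl21 and Rplp1 stayed below 0.

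The proteins of the P-stalk, which recruits elongation factors to the ribosome, did not share a direction. Rplp0, the stalk base, had a log2 ratio of 0.78 and Rplp2 of 0.61, but Rplp1 had 4739 CPM in the glioma lineage and 6088 CPM in control microglia-like cells (-0.36). As a share of member UMIs, Rplp1 was 2.46% in the glioma lineage and 4.43% in control microglia-like cells. The ratio of small- to large-subunit UMIs was 0.833 in the glioma lineage and 0.776 in control microglia-like cells, with exact 95% intervals of 0.832 to 0.834 and 0.775 to 0.777.

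**Figure D3:**
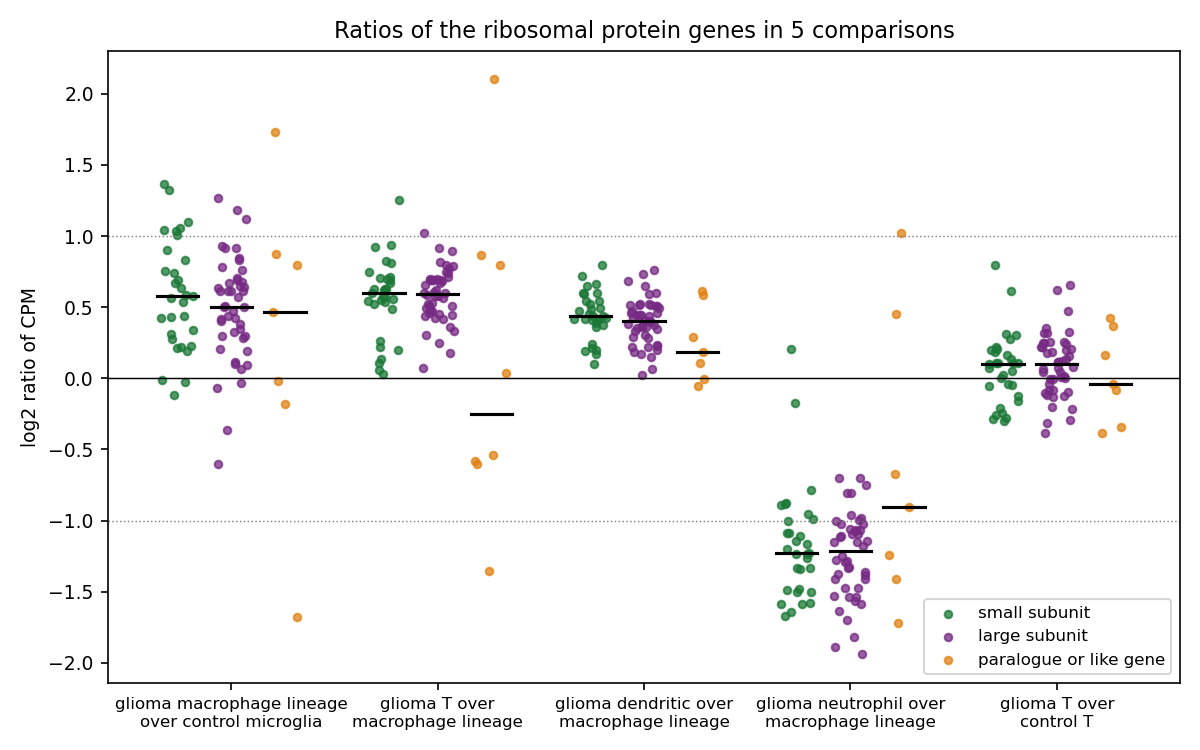
Log2 ratios of CPM (y axis) of the ribosomal protein genes in 5 comparisons, each point 1 gene, coloured by subunit, with medians as black lines and dotted lines at 2-fold. Genes at 0 UMIs in either class are left out. Nearly all genes lie below 0 in glioma neutrophil-like over macrophage-lineage cells, and above 0 in glioma T cell-like over macrophage-lineage cells.

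The paralogue and like genes spread widely. Rps27l had 375 CPM in the glioma macrophage lineage and 113 CPM in control microglia-like cells (log2 ratio 1.73). Rpl36al had a log2 ratio of 0.88 and Rpl22l1 of 0.80, both above the median member. Rpl7l1, a ribosome biogenesis factor related to Rpl7, had 61.3 and 69.4 CPM (-0.18), and Rps19bp1, a nucleolar partner of Rps19, 0.46. Rpl3l, a paralogue of Rpl3 known from heart and skeletal muscle in the mouse, had 264 UMIs (2.75 CPM) in the glioma lineage and 0 in control microglia-like cells, at least 75.1-fold higher with 3 UMIs as the floor for the control sum. It lies downstream of Rps2 on the same strand of chromosome 17 (Rps2 at 24718116 to 24721929, Rpl3l at 24727820 to 24736143 on GRCm38). The source of the Rpl3l UMIs was not tested. Rpl39l, a testis-enriched paralogue of Rpl39, had 78 UMIs (0.814 CPM) in the glioma lineage and 214 UMIs (2.62 CPM) in control microglia-like cells (-1.68). Rpl10l had no UMI in any kept barcode of either library.

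Several classes were present in both libraries under the same name. Glioma and control T cell-like cells had nearly the same member share, 28.7% and 27.6% (log2 ratio 0.06). The sign of this ratio did not hold: with each cell thinned to 2000 UMIs the shares were 27.6% in glioma and 29.1% in control (-0.08), with 22 glioma and 2 control cells under that depth left out, and in cells with 5000 to 10000 UMIs the log2 ratio was -0.15. Of 84 members tested in T cell-like cells, 0 were 2-fold higher, against 11.4% of all genes, and 0 were 2-fold lower, against 14.9%. No p-value can be given for these counts with 1 library per group. In NK cell-like cells the share was 28.8% in glioma and 21.8% in control (0.40), from 108 and 27 cells, and 3 of 82 members were 2-fold higher, against 7.51% of all genes. Rps27l and Rps18 were among them. By median of ratios 28 were 2-fold higher, with the median of all genes at 0.19, where by CPM it was -0.31. In B cell-like cells the member share was 25.3% and 24.6% (0.05), and 0 of 82 members were 2-fold higher, against 6.89% of all genes. In neutrophil-like cells it was 8.67% and 9.28% (-0.10), from 376 and 57 cells, and the log2 ratio was 0.46 in cells with 5000 to 10000 UMIs. In the macrophage lineage it was 19.3% in glioma and 12.2% in 269 control cells (0.67), of which 233 were border-associated macrophage-like. The other control cells of the lineage were monocyte-like. In glioma border-associated macrophage-like cells were 352 of 6813, and most of the others were macrophage-like, a class absent from the control lineage. The makeup of the lineage as gated therefore differs between the libraries, and the part of the gates in the ratio of 0.67 was not tested. In this comparison 12 of 85 members were 2-fold higher, against 12.8% of all genes, and 1 was 2-fold lower, against 21.6%. Those higher were 21 by median of ratios and 22 per UMI outside member and mitochondrial genes. Shares of all genes at 2-fold are given for CPM only. Monocyte-like cells had 18.4% in glioma and 18.7% in control. Microglia-like cells, gated at 10 marker UMIs per 10000 with 4 markers in glioma and at 60 with 3 markers in control, had 16.7% in glioma, from only 31 cells, and 13.7% in control (0.28), with 2 of 84 members 2-fold higher, against 20.3% of all genes.

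Single genes differed between the libraries in several of these classes. They are given as shares of member UMIs, so that the common shift drops out. All 6 ratios share the same pair of libraries and are no independent evidence of each other. Rps18 had log2 ratios of this share, glioma over control, of 0.88 for macrophage lineage over microglia-like, 0.67 within the macrophage lineage, 0.56 in T cell-like, 0.77 in NK cell-like, 0.48 in B cell-like and 0.28 in neutrophil-like cells. Rpl31 had 0.69, 0.54, 0.56, 0.54, 0.72 and 0.21 in the same order, and Rpl38 had 0.63, 0.19, 0.29, 0.49, 0.39 and 0.42. All 3 lay above 0 in each comparison. On the other side, Rplp1 had -0.85, -0.51, -0.44, -0.21, -0.56 and -0.51, and Rpl21 had -1.09, -0.76, -0.38, -0.35, -0.17 and -0.50. Rps4x lay between -0.69 and -0.31 in all 6. Rps27l was at 1.24, 0.48, 0.37, 0.93 and 0.90 in the classes other than B cell-like cells, where it was at -0.45 on 10 glioma and 40 control UMIs. The NK value of 0.93 rests on 132 glioma and 9 control UMIs (interval 0.04 to 2.16), and the neutrophil value of 0.90 on 152 and 31 UMIs (0.35 to 1.52). The cell types differ in these 6 comparisons and the libraries do not, so a difference of the libraries and one of the glioma cannot be told apart here.

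**Figure D4:**
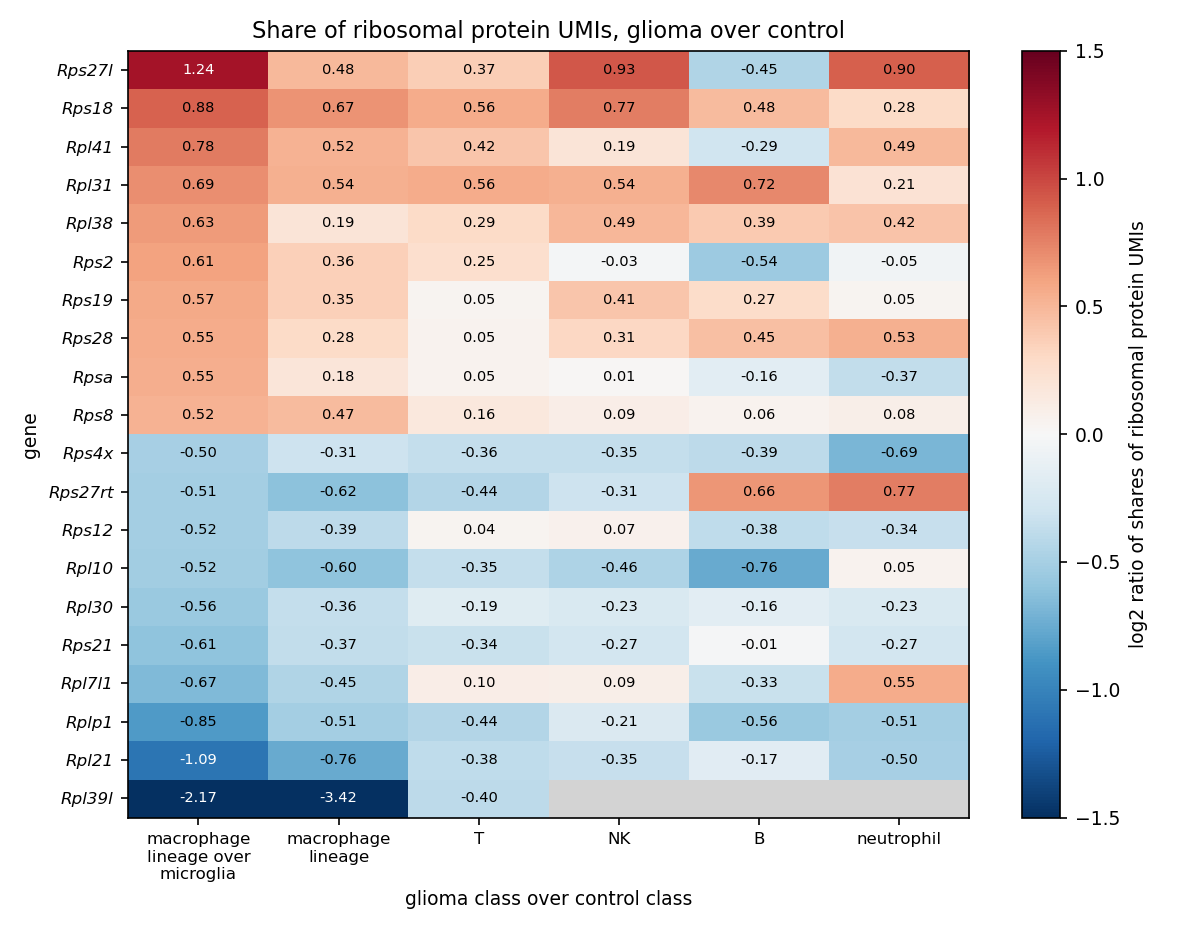
Log2 ratio of the share of ribosomal protein UMIs, glioma class over control class, for 10 genes at the high end and 10 at the low end of the first column (rows) in 6 comparisons (columns). Red is higher in glioma, blue is lower and grey marks a class at 0 UMIs or under 20 UMIs in all. Rps18, Rpl31 and Rpl38 are above 0, and Rplp1, Rpl21 and Rps4x below 0, in each of the 6 columns.

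Reads from these genes can also match other copies, since the members have many processed pseudogenes. Copies were searched among all annotated transcripts, whether counted in these files or not. The counted genes hold 9 with an Rpl or Rps symbol and -ps. Of the 86 members, 57 had at least 1 window of 100 bases, within the last 400 bases of their transcript, that occurs exactly in a transcript of another annotated gene, and in 29 more than 50% of the windows did. The share was 98.4% in Rps27, with Rps27rt and Gm17241, and 100% in Rpl10, Rpl36a and Rpl9. Rps2 had 65.1% and Rps18 44.9%, while Rpl31, Rpl21, Rps21, Rpl12, Rpsa and Rps27l had 0%. Other genes named in the results also had shared windows. The share was 89.0% in Rpl10a, 80.4% in Rpl3, 62.5% in Rps12, 50.8% in Rpl30 and 43.0% in Rpl38. It was 39.2% in Rps9, 33.2% in Rplp1, 27.9% in Rpl41 and 23.9% in Rps4x. How reads that match several genes were counted is not given in the sources used here. Levels of Rps27 and Rps27rt are uncertain against each other for this reason, and those of Rpl36a against its pseudogenes. Rpl36al, with 75.1% of its windows shared, and Rpl22l1, with 39.9%, are uncertain against the genes they match.

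Within the glioma library, classes could be compared inside 1 pooled matrix, where no cell can be tied to 1 of the 4 samples. T cell-like cells had 28.7% member UMIs and macrophage-lineage cells 19.3% (log2 ratio 0.58). Of 85 members, 81 lay above 0. There were 3 members at least 2-fold higher, against 18% of all genes, and 1 at least 2-fold lower, against 20%. Rps15a of the small subunit had 5762 CPM in T cell-like cells and 2415 CPM in the macrophage lineage (1.25). Rpl12, at the base of the stalk, had 4272 and 2103 CPM (1.02), and Rpsa had 5732 and 2987 CPM (0.94). Of the stalk proteins, Rplp0 had a log2 ratio of 0.65, Rplp2 of 0.51 and Rplp1 of 0.36. As a share of member UMIs, Rplp1 (-0.21) and Rplp2 (-0.07) were lower in T cell-like cells. Rps9 had 4126 and 4049 CPM (0.03), which as a share of member UMIs was a log2 ratio of -0.55. Only paralogue or like genes were lower in CPM: Rps27l (-0.58), Rpl7l1 (-0.61), Rps19bp1 (-0.54) and Rpl3l (-1.36, from 15 and 264 UMIs). The third of the genes at least 2-fold higher was Rpl39l, with 50 UMIs in T cell-like cells and 78 in the macrophage lineage.

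NK cell-like cells were close to T cell-like cells. Of 85 members, 5 were at least 2-fold higher in NK cell-like than in macrophage-lineage cells, against 21.5% of all genes. They were Rps27, with 4252 and 1882 CPM (1.18), Rps15a (1.15), Rps27rt (1.14), Rpl21 (1.04) and Rpl12 (1.01). Rps27l, at 181 and 375 CPM (-1.04), and Rpl7l1 were the 2 that were 2-fold lower, against 19.8% of all genes. In B cell-like cells Rps27 stood further out, with 6794 CPM and 1882 CPM in the macrophage lineage (1.85), and Rps27l had 76.2 CPM (-2.23). These come from 34 cells, in which 7 of 85 members were at least 2-fold higher, against 38.5% of all genes. Monocyte-like cells of glioma differed little from macrophage-like cells, with 18.4% and 19.5%. None of 85 members was 2-fold higher, against 4.88% of all genes, and none was 2-fold lower, against 11%.

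Dendritic cell-like cells had 25.9% member UMIs and the macrophage lineage 19.3% (0.42), and 82 of 85 members lay above 0. None of the 85 was 2-fold higher, against 9.18% of all genes, and 1 was 2-fold lower, against 15.5%. This was Rpl39l, with 0 UMIs and 78 UMIs, at least 2.21-fold lower with a floor of 3 UMIs. Rpl41 lay close to 0, with 3876 CPM in dendritic cell-like and 3816 CPM in macrophage-lineage cells (0.02). Rpl21 (0.76), Rpl14 (0.74) and Rpsa (0.72) were among the members furthest above 0. Rps27l was also higher, at 562 CPM, its highest level among the classes of at least 20 cells. In plasmacytoid dendritic cell-like cells Rpl31 stood apart, with 2594 CPM and 776 CPM in the macrophage lineage (1.74), in 29 cells. Of the 85 members, 4 were at least 2-fold higher there, against 29.7% of all genes.

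Neutrophil-like cells of glioma had 8.67% member UMIs and the macrophage lineage 19.3% (-1.15). The median cell had 120 member UMIs, while that of the macrophage lineage had 2325. Of the 85 members, 65 were at least 2-fold lower, against 33.8% of all genes, and 1, Rpl3l, was 2-fold higher on 7 and 264 UMIs, against 15.8%. Rpl10a of the L1 stalk had 473 and 1815 CPM (-1.94), Rpl3, near the peptidyl transferase centre, 535 and 1981 CPM (-1.89) and Rpl12 596 and 2103 CPM (-1.82). Rps2 (-1.67), Rps18 (-1.64) and Rplp1 (-1.57) were also more than 2-fold lower. In the summed UMIs, Rps27 and Rps9 stayed near the level of the macrophage lineage. Rps27 had 2168 CPM in neutrophil-like cells and 1882 CPM in the macrophage lineage (0.20), and Rps9, which lines the mRNA entry of the small subunit, had 3595 and 4049 CPM (-0.17). As shares of member UMIs these were 2.50 and 0.976% for Rps27, and 4.15 and 2.10% for Rps9. Of control neutrophil-like against control microglia-like cells, none of 84 members was 2-fold higher, against 21% of all genes, and 9 were 2-fold lower, against 29.1%. Rps27 had 1457 and 1618 CPM there, and Rps9 2494 and 2798 CPM. The depths differed: the median neutrophil-like cell had 2439 UMIs in glioma, and the median macrophage-lineage cell 12716. The log2 ratio of the share, -1.15, was -0.63 with barcodes in more than 1 gate kept, -0.55 in cells with 5000 to 10000 UMIs and -1.94 as the ratio of medians over cells. By UMI count, the deepest group of glioma neutrophil-like cells had a share of 12.02%, against 4.84% in the group before it. Most member UMIs of the class came from that deepest group, so the gene values of glioma neutrophil-like cells mainly describe it. Single genes were not tested in the shallower groups.

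Classes of the control library were set against its microglia-like cells. Control T cell-like cells had 43 of 84 members at least 2-fold above control microglia-like cells, against 16.3% of all genes, with 37 by median of ratios and 70 per UMI outside member and mitochondrial genes. They were led by Rpsa, with 5315 and 1456 CPM (1.87), and Rpl22l1 (1.68), whose partner Rpl22 is needed for the development of alpha-beta T cells in the mouse. Among the stalk proteins, Rplp0 had a log2 ratio of 1.42, Rplp2 of 1.01 and Rplp1 of 0.38, with 7935 and 6088 CPM. Control B cell-like cells had 24 of 84 at least 2-fold higher, against 25.1% of all genes, but 8 with median-of-ratios scaling and 49 per UMI outside member and mitochondrial genes. Border-associated macrophage-like cells lay below microglia-like cells for 79 of 84 members, but only Rpl39l passed 2-fold, upward on 11 UMIs, against 16.3% of all genes. Endothelial-like cells lay below for 77 of 84. None of the 84 was 2-fold higher, against 30.2% of all genes, and 8 were 2-fold lower, against 15.9%. By median of ratios 46 of 84 were 2-fold lower, with the median of all genes at -0.11, where by CPM it was 0.37. The 8 included Rplp1 (2399 and 6088 CPM, -1.34) and Rps29 (1616 and 3857 CPM, -1.25). Rps27l was higher in both, at 161 CPM in border-associated macrophage-like cells, 211 CPM in endothelial-like cells and 113 CPM in microglia-like cells. In erythroid-like cells 0 of 84 members were 2-fold higher, against 2.53% of all genes, and 83 were 2-fold lower, against 82.4%.

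The paralogue pairs were read as the share of the pair's UMIs, which is compared between classes and not between genes. The level of Rps27 is uncertain, since 98.4% of its 3' windows occur in other genes, and so is each share of that pair. Rps27l made up 16.6% of Rps27 and Rps27l UMIs in the glioma macrophage lineage and 6.53% in control microglia-like cells. Within glioma it was 17.9% in macrophage-like cells, 18.3% in border-associated macrophage-like cells, 15.8% in dendritic cell-like cells and 10.8% in monocyte-like cells. It was low in lymphocytes and neutrophils of glioma, with 6.58% in T cell-like, 4.98% in neutrophil-like, 4.09% in NK cell-like and 1.11% in B cell-like cells (exact interval 0.533 to 2.03%). In control it was 14.3% in endothelial-like, 10.7% in border-associated macrophage-like, 4.11% in T cell-like and 2.46% in B cell-like cells. Both genes differed between classes: glioma T cell-like cells had Rps27 at 3566 CPM and Rps27l at 251 CPM, and the glioma macrophage lineage had them at 1882 and 375 CPM.

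**Figure D5:**
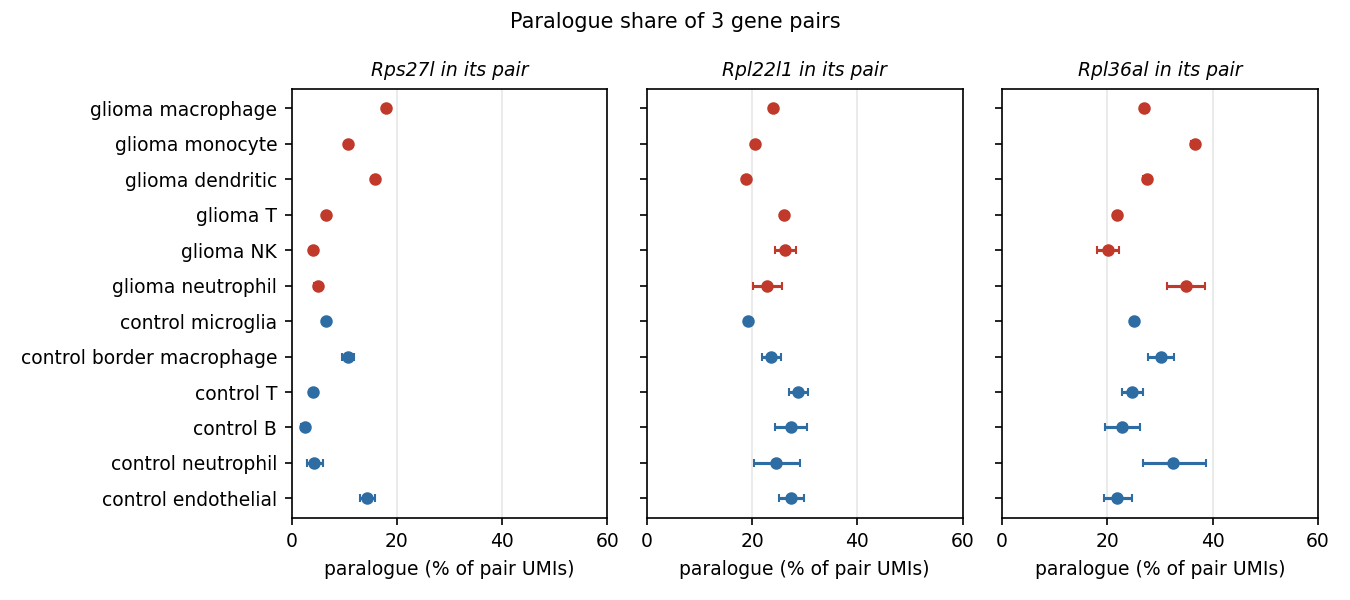
Share of the paralogue in the UMIs of its pair (x axis, percent) for Rps27l with Rps27, Rpl22l1 with Rpl22 and Rpl36al with Rpl36a in 6 glioma classes (red) and 6 control classes (blue), with exact 95% intervals for counting error. Rps27l ranges from 2.46% in control B cell-like to 17.9% in glioma macrophage-like cells, and Rpl36al is highest in monocyte- and neutrophil-like cells. Levels of Rps27, Rpl36a, Rpl36al and, in part, Rpl22l1 are uncertain because windows of their 3' ends occur in other genes.

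Rpl22l1 had a narrower range. It was 26.01% of its pair in glioma T cell-like cells, 23.4% in the glioma macrophage lineage and 18.9% in glioma dendritic cell-like cells, and in control 28.8% in T cell-like and 19.2% in microglia-like cells. Rpl36al had its highest shares in monocyte-like cells (36.6% in glioma, 42.5% in control with an interval of 37.8 to 47.3%) and neutrophil-like cells (34.9% in glioma, 32.5% in control). It was 21.7% in glioma T cell-like cells and 25.05% in control microglia-like cells. Rpl36a shares its whole 3' end with pseudogenes, and 75.1% of the 3' windows of Rpl36al occur in other genes, so this pair is uncertain. Of the 3' windows of Rpl22l1, 39.9% occur in another gene, so the shares of that pair carry some uncertainty too.

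In summed UMIs, cycling cells, gated by Mki67, Top2a and other cell-cycle genes, had much the same member share as cells with no UMI of those genes. It was 19.2% in 338 cycling and 19.01% in 4454 non-cycling macrophage-lineage cells of glioma, and 29.3% and 28.7% in 137 cycling and 845 non-cycling T cell-like cells. At 5000 to 10000 UMIs the log2 ratio of the T cell-like shares was -0.69. In neither lineage was a member 2-fold higher, against 10.7% of all genes in the macrophage lineage and 10.1% in T cell-like cells. At least 2-fold lower were 1 of 85 members in the macrophage lineage (Rpl3l), against 4.17% of all genes, and 2 of 84 in T cell-like cells (Rpl39l and Rps27rt), against 6.92%. The Rps27 pair did differ. Rps27l was 24.0% of the pair in cycling and 14.5% in non-cycling macrophage-lineage cells, and 12.2% and 3.95% in cycling and non-cycling T cell-like cells. Rps27 had 2549 CPM in cycling and 4390 CPM in non-cycling T cell-like cells (-0.78), and Rps27l 353 and 181 CPM (0.97). Rpl22l1 was 28.1% of its pair in cycling and 21.2% in non-cycling macrophage-lineage cells, and 29.2% and 23.6% in cycling and non-cycling T cell-like cells. Cycling cells were deeper, with a median of 27134 and 10157 UMIs in the macrophage lineage. Among cells with 10000 to 20000 UMIs, Rps27l was 19.6% in cycling and 15.02% in non-cycling macrophage-lineage cells, and 8.06% and 5.53% in T cell-like cells, smaller differences of the same direction. In the same depth window Rpl22l1 was 27.5% and 20.2% in cycling and non-cycling macrophage-lineage cells. In T cell-like cells it was 27.3% and 25.8%, with overlapping intervals of 25.6 to 29.1% and 24.5 to 27.0%. Rps2 (0.71) was among the core genes most above 0 in cycling T cell-like cells.

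Among glioma T cell-like cells, 391 CD8 cells had a member share of 31.4% and 144 regulatory cells, gated by Foxp3 with Ikzf4 or Ctla4, had 25.5% (0.30). Of 83 members, 82 lay above 0 and none passed 2-fold, against 4.94% of all genes upward and 8.66% downward. Rps28 (0.46), Rpl21 (0.46) and Rps18 (0.45) were highest. Cells with naive genes (Ccr7, Lef1 and others) had 32.6% and those with effector genes such as Gzmb and Ifng had 27.9% (0.23), from 138 and 291 cells. Of 84 members, 0 were 2-fold higher, against 6.6% of all genes, and 1, Rpl39l, was 2-fold lower, against 6.64%. Rps27 was the member furthest above 0, with 4639 CPM in naive-gene and 3192 CPM in effector-gene cells (0.54), and Rps27l was at 206 and 243 CPM (-0.24). Control microglia-like cells with high Il1a, Tnf, Gpr84 or Ccl4 had 14.0% and those with low levels 13.5% (0.05), and none of 84 members passed 2-fold, against 5.08% of all genes upward and 6.62% downward.

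Other genes of the translation machinery were read as lists. Rack1, a ribosomal protein outside the naming rule, had 2027 CPM in the glioma macrophage lineage and 1099 CPM in control microglia-like cells, a log2 ratio of 0.88, where the median member had 0.56. Of 16 translation factors and other TOP mRNAs, 2 were at least 2-fold higher and 0 lower there, with a median of 0.40. Of 23 ribosome biogenesis genes, 0 were higher and 2 lower, with a median of 0.12, and of 78 mitochondrial ribosomal protein genes, 16 were higher and 0 lower, with a median of 0.56. Of all genes 16.5% were higher and 33.2% lower there. In glioma over control T cell-like cells the mitochondrial list had a median of 0.52, with 9 of 77 higher, against 11.4% of all genes, and 1 lower, against 14.9%, while the translation factors had -0.01 and the members 0.09. In glioma neutrophil-like over macrophage-lineage cells these 3 lists were lower: 13 of 16 translation factors, 20 of 23 biogenesis genes and 56 of 78 mitochondrial genes were at least 2-fold lower, against 33.8% of all genes. In cycling over non-cycling T cell-like cells 8 of 23 biogenesis genes were 2-fold higher, against 10.1% of all genes (median 0.89), while the median member was at 0.07. Over 14 classes of at least 50 cells, the genes outside the members with a pattern most like the summed member share were Rack1 (Pearson r of log2 CPM 0.99), Eef1b2 (0.99), Naca (0.99) and Npm1 (0.98). Without the erythroid-like class, Rack1 (0.99), Nsa2 (0.97) and Eef1b2 (0.97) led over 13 classes. Classes of a library come from the same pooled matrix and differ in depth, and these values are a description. Members are part of the summed share, so a high r is partly built in for them. The 79 members in that measure had a median r of 0.99 over the 14 classes, where the median of 740 genes was 0.67. Those medians were 0.975 and 0.02 without the erythroid-like class, for 81 members and 1695 genes.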

How the data were processed

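Single-cell 3' RNA was counted by the authors as raw UMI counts per gene and barcode, deposited as 1 matrix per group. Cell Ranger 3.0.2, STAR and Seurat 3 and the builds GRCh38 and mm10 are named in the submitters' processing notes. Per the labels, 4 samples form each group, and the matrices hold no map from barcodes to samples. The kit is given as v2 or v3.

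Barcodes with at least 1000 UMIs and at most 10% mitochondrial UMIs were kept, gated by markers, and those in more than 1 gate were left out (343 glioma, 191 control). No doublet caller was run. UMIs were summed per class, and genes with at least 20 UMIs over both sums were compared as log2 ratios of CPM with 0.5 UMI added. A change of 2-fold counts as called. Shares of all genes beside such counts are by CPM, and none is given for the other scalings. Intervals are exact at 95%, Clopper-Pearson for shares and conditional binomial for ratios. Named genes are the stalk proteins, Rpsa, paralogues and, per main comparison, the 5 highest and 5 lowest members with at least 100 UMIs, with further genes chosen after their values were seen. Some genes that the rule names are not reported here. Members and lists were chosen with earlier results of these data known. Reads matching several genes, and their handling, are not described in the sources used here. Scripts used Python 3.11.15, NumPy 2.4.6, SciPy 1.17.1, pandas 2.3.3 and matplotlib 3.10.9, and were tested on simulated data.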

Additional observations from a re-analysis of the deposited data

Results flagged for a closer look

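Rpl39l had a signal in barcodes with too few UMIs to be cells, which no comparison uses. It was at 21.6 CPM in glioma free RNA and 81.2 CPM in control free RNA, 29 UMIs in each. It made up 3.25% of Rpl39 and Rpl39l UMIs in control free RNA and 0.130% in control microglia-like cells. The source of these UMIs was not tested.

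The member share had opposite directions between the libraries in a pair of cell types. The log2 ratio, glioma over control, was 0.67 in the macrophage lineage and -0.10 in neutrophil-like cells. In cells with 5000 to 10000 UMIs the values were 0.64 and 0.46, no longer of opposite direction. Of the macrophage lineage, 352 of 6813 glioma cells and 233 of 269 control cells were border-associated macrophage-like, and monocyte-like cells alone had 18.4% in glioma and 18.7% in control. The lineage as gated held macrophage-like cells in glioma only. The difference between the macrophage-lineage and neutrophil-like ratios was not tested, since each group is 1 library.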

How the results depend on the processing

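No paired analysis was possible because barcodes carry no map to the samples of a group. Values are log2 ratios of the member share, with settings in this order: at least 2000 UMIs (where given), at most 5% and at most 20% mitochondrial UMIs, gate minima of double size, barcodes in more than 1 gate kept, cells with 5000 to 10000 UMIs, the median over cells, cells thinned to 2000 UMIs, free RNA subtracted, members without paralogues, and UMIs without mitochondrial genes. The 5000 to 10000 UMI window was chosen after seeing the data.

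The glioma macrophage lineage over control microglia-like cells (0.49) gave 0.48, 0.52, 0.50, 0.51, 0.49, 0.34, 0.57, 0.53, 0.57, 0.49 and 0.50. T cell-like over macrophage-lineage cells (0.58) gave, from 5% mitochondrial UMIs on, 0.55, 0.58, 0.59, 0.56, 0.73, 0.56, 0.57, 0.60, 0.58 and 0.56. Dendritic cell-like over macrophage-lineage cells (0.42) gave 0.41, 0.43, 0.43, 0.42, 0.28, 0.46, 0.43, 0.46 and, without mitochondrial genes, 0.41. Neutrophil-like over macrophage-lineage cells (-1.15) gave -1.07 at 2000 UMIs, -1.18 at 5%, -1.09 with double gates, -0.63 with multiple gates kept, -0.55 in the window, -1.94 as the median, -1.502 thinned, -1.35 with free RNA subtracted and -1.19 without mitochondrial genes. Glioma over control T cell-like cells (0.06) gave 0.15 and 0.064 at 5% and 20%, 0.073 with double gates, 0.064 with multiple gates kept, -0.15 in the window, -0.078 thinned, 0.074 with free RNA subtracted and 0.047 without mitochondrial genes. Its sign turned in the window and on thinning.

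Other signs that turned: in the window, the share of glioma over control neutrophil-like cells (0.46) and of cycling over other T cell-like cells (-0.69), and the median member of these T cell-like cells (-0.68) and of glioma over control T cell-like cells (-0.15, and -0.059 as a mean over cells). By median-of-ratios scaling, the median member turned in plasmacytoid dendritic cell-like over macrophage-lineage (-0.019) and monocyte-like over macrophage-like cells (0.0066). As shares of member UMIs, Rps19bp1 turned in the macrophage lineage over microglia-like cells (-0.024). In T cell-like over macrophage-lineage cells Rplp2 (-0.069), Rplp1 (-0.21), Rpl36al (-0.54) and Rps9 (-0.55) did. In neutrophil-like cells Rps9 (0.98), Rpl7l1 (0.48), Rps19bp1 (0.25) and Rplp2 (0.061) did. In dendritic cell-like cells Rplp0 (-0.049), Rplp1 (-0.23), Rpl36al (-0.24), Rplp2 (-0.27), Rpl37a (-0.36) and Rpl41 (-0.40) did. The causes were not tested.

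The share of all genes past 2-fold is given for CPM alone, so counts under other scalings cannot be set against it. Counts of members at least 2-fold higher in the macrophage lineage over microglia-like cells were 12, 25 by median of ratios and 16 per UMI outside members and mitochondrial genes. In T cell-like over macrophage-lineage cells they were 3, 2 and 8, and those lower in neutrophil-like cells were 65, 61 and 77. In the same order, glioma over control gave 12, 21 and 22 higher in the macrophage lineage, 3, 28 and 6 in NK cell-like and 2, 2 and 5 in microglia-like cells. Over the macrophage lineage, NK cell-like cells gave 5, 3 and 10 higher, B cell-like cells 7, 3 and 7 and plasmacytoid dendritic cell-like cells 4, 2 and 5. Over control microglia-like cells, T cell-like cells gave 43, 37 and 70 higher and B cell-like cells 24, 8 and 49, while endothelial-like cells gave 8, 46 and 10 lower and neutrophil-like cells 9, 4 and 11 lower. Glioma over control T cell-like cells gave 0, 1 and 0 higher, cycling over other T cell-like cells 2, 2 and 1 lower, and B cell-like over macrophage-lineage cells 1, 2 and 1 lower. Depth limits the classes under 50 cells.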
